A study of Mus musculus with 6 samples.

Results

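Endothelial cells line the blood vessels, and 10 genes that mark them, Pecam1, Cdh5, Kdr, Flt1, Tek, Tie1, Vwf, Eng, Emcn and Plvap, were followed in RNA-seq counts of the whole epididymis from adult mice, WT or Ocln-KO. They were picked by symbol as vascular endothelial genes and are 10 of the 57127 genes in the count table. The WT libraries came from C57BL/6 mice and the Ocln-KO libraries from Ocln-/- mice labelled with the same strain, a constitutive knockout of the tight junction protein occludin bred from heterozygous pairs. There were 3 libraries of each genotype, 6 in all, and whether each library holds the RNA of 1 mouse or of pooled mice is not stated outright. P-values therefore measure the spread between these libraries.

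The epididymal tubule is a closed epithelium, and its blood supply runs in capillaries of the interstitium between the coils. Endothelial cells grow and survive under 2 receptor systems, the VEGF receptors encoded by Kdr and Flt1 and the angiopoietin receptor encoded by Tek with its partner Tie1. They hold together through VE-cadherin (Cdh5) and PECAM-1 (Pecam1), and they carry endoglin (Eng), endomucin (Emcn) and the diaphragm protein PLVAP on their surface and store von Willebrand factor (Vwf) for release. Whole tissue holds many cell types, so fewer endothelial cells and less RNA per endothelial cell cannot be told apart in these values.

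None of the 10 endothelial genes passed the genotype test. All adjusted p in what follows are Benjamini-Hochberg values of the quasi-likelihood test in edgeR unless another tool is named. With an adjusted p under 0.05, 0 were higher and 0 were lower in Ocln-KO by edgeR. Among all 19691 genes tested, 3.91% were higher and 5.04% were lower by this call. None met the thresholds of the study's methods either, a fold change over 2 or under 0.5 with an adjusted p under 0.05, which 3.19% of all genes met. DESeq2 and limma-voom also called 0 of the 10, with 3 and 2 at an unadjusted p under 0.05. At an unadjusted p under 0.05, edgeR had 1 gene higher (Emcn) and 1 lower (Kdr), where 13.9% and 15.2% of all genes were. Of the 10, 9 had a positive log2 fold change and Kdr alone a negative one, with a median of 0.22 against 0.01 over all genes tested. This median rested on the libraries included, and became 0.07 when Ocln-KO replicate 3 was left out, or 0.35 when Ocln-KO replicate 1 was.

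The targeted gene, Ocln, had 85.9, 78.8 and 91.8 CPM (counts scaled to a common library size with edgeR's TMM factors) over the WT libraries, and 15.1, 15.3 and 14.9 CPM over those of Ocln-KO. For this gene Ocln-KO minus WT was -2.50 on the log2 scale (SE 0.09, adjusted p = 0.000108, edgeR). The libraries held between 30646424 and 38870780 counts, so that 1 count equals between 0.0267 and 0.0314 CPM. On the first principal component of log2 CPM, with 47.2% of the variance, the WT libraries ranged from -52.8 to -37, while Ocln-KO spread over 17.7, 29.1 and 86.3, with Ocln-KO replicate 3 at a distance from the rest. An extraction protocol in the labels names prefrontal cortex, while the tissue is given as epididymis. Crisp1, a secretory transcript of the epididymal epithelium, was abundant at 14891 CPM in WT, with 7852 CPM in Ocln-KO. The Ocln-KO libraries had 9957, 9160 and 4439 CPM, and Crisp1 was not called (adjusted p = 0.0855, edgeR).

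All 10 endothelial genes were detected in every library, with 214 to 1320 counts per gene and library. Divided by the length of the merged exons of each gene, Cdh5 was the most abundant in WT, at 4.22 ± 0.486 CPM per kb (SD, n = 3). Plvap, Kdr and Eng followed at 3.81, 3.53 and 3.36 CPM per kb. The libraries of each of these genes overlapped those of its neighbour in this order. Pecam1, at 2.52 CPM per kb, stood apart from Eng above it and from Tek below it. Tek, Vwf, Tie1 and Emcn lay close together between 1.51 and 1.7 CPM per kb, each overlapping the next. Flt1 was lowest at 1.08 ± 0.0894 CPM per kb (SD, n = 3), over merged exons of 13504 bases. In Ocln-KO the order was Cdh5, Plvap, Eng, Pecam1, Kdr, Emcn, Tek, Tie1, Vwf and Flt1, and Kdr, the third in WT, was the fifth. There each gene overlapped the next, Pecam1 and Kdr included, except that Kdr stood apart from Emcn and Vwf from Flt1. Exons of 1 of the 10 genes share bases with another annotated gene, Eng, with 61 bases or 1.51% of its exons opposite Fpgs. The strand setting of the counting is not given in the sources used here.

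**Figure D1:**
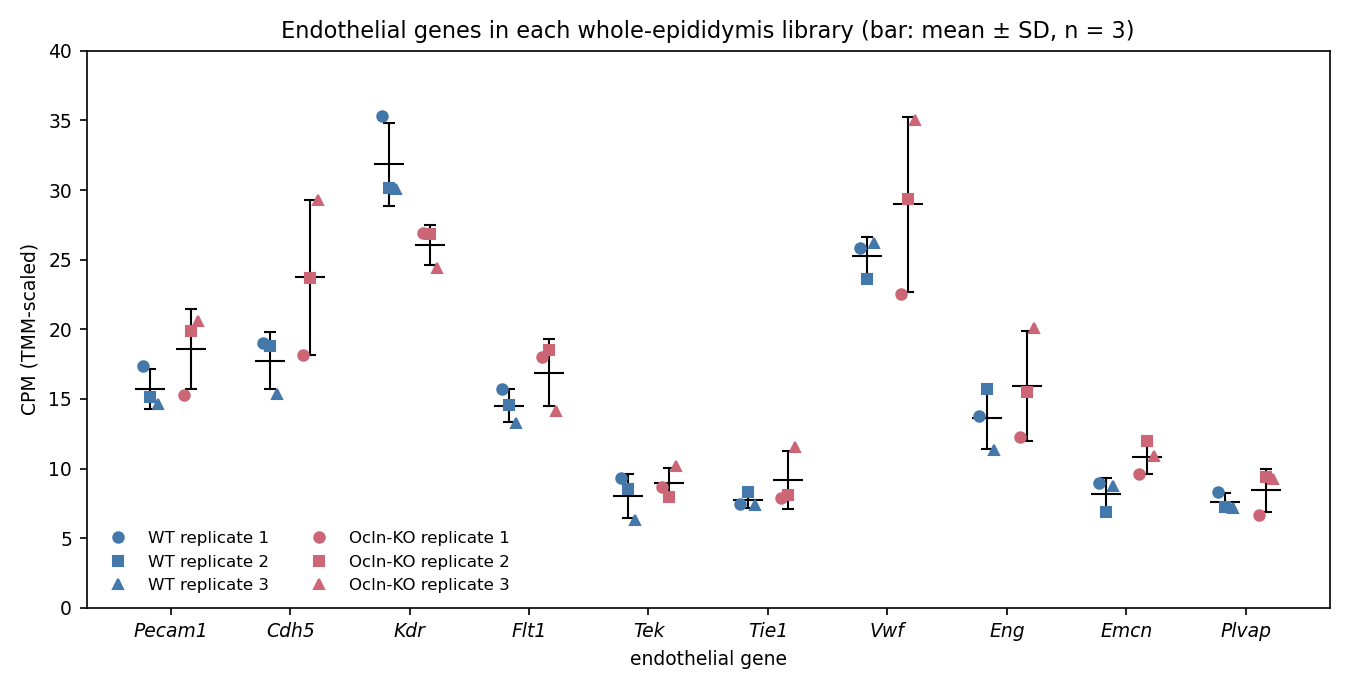
CPM (TMM-scaled, vertical axis) of the 10 endothelial genes (horizontal axis) in each of the 3 WT and 3 Ocln-KO libraries, with a bar at the mean and whiskers of 1 SD (n = 3). The genotypes overlap except for Kdr, where the Ocln-KO libraries lie between 24.4 and 26.9 CPM and the WT libraries between 30.1 and 35.3 CPM, and Emcn, where each Ocln-KO library lies above each WT library.

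Kdr encodes VEGF receptor 2, the main signalling receptor for VEGF-A in endothelial cells, and lies on chromosome 5 from 75932827 to 75979072 (RefSeq, GRCm38.p6, as for all coordinates here). Levels were 35.3, 30.2 and 30.1 CPM over the WT libraries, and 26.9, 26.9 and 24.4 CPM over those of Ocln-KO. The Ocln-KO libraries were all below the WT libraries, and their spread was small. The log2 fold change was -0.29 ± 0.10 (SE, adjusted p = 0.114, edgeR), with a 95% interval from -0.53 to -0.05 that is not adjusted for the number of genes. Over the 13 alternative fits the log2 fold change of Kdr stayed between -0.33 and -0.20 and the adjusted p between 0.107 and 0.323.

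Flt1, on the same chromosome from 147561604 to 147726438, encodes VEGF receptor 1, which binds VEGF-A tightly, signals weakly and is also made in a soluble form. WT libraries had 15.7, 14.6 and 13.3 CPM and Ocln-KO libraries 18, 18.5 and 14.1 CPM. Ocln-KO replicates 1 and 2 lay above each WT library, and Ocln-KO replicate 3 lay among them. On the log2 scale Ocln-KO minus WT was 0.22 ± 0.15 (SE, adjusted p = 0.368), a difference within the spread of the libraries. As for Kdr, Ocln-KO replicate 3 was the lowest library of its genotype for Flt1, while 6 other members were highest there. Without that library the value for Flt1 was 0.33.

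The ratio of Kdr to Flt1 counts within a library, which no scaling between libraries can change, was 2.25, 2.07 and 2.26 in WT and 1.5, 1.45 and 1.72 in Ocln-KO. It was lower in each Ocln-KO library than in each WT library. Against Pecam1 the Kdr counts were 2.03 ± 0.0309-fold in WT and 1.43 ± 0.297-fold in Ocln-KO, and against Cdh5 1.81 ± 0.181-fold and 1.15 ± 0.324-fold (SD, n = 3 each), also without overlap. All 3 ratios share Kdr, which was itself lower without overlap, so they are not separate observations. These ratios were chosen after the values were seen. With 3 libraries against 3, the lowest p an exact permutation test (two-sided) allows is 0.1, so none of them can pass 0.05.

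**Figure D2:**
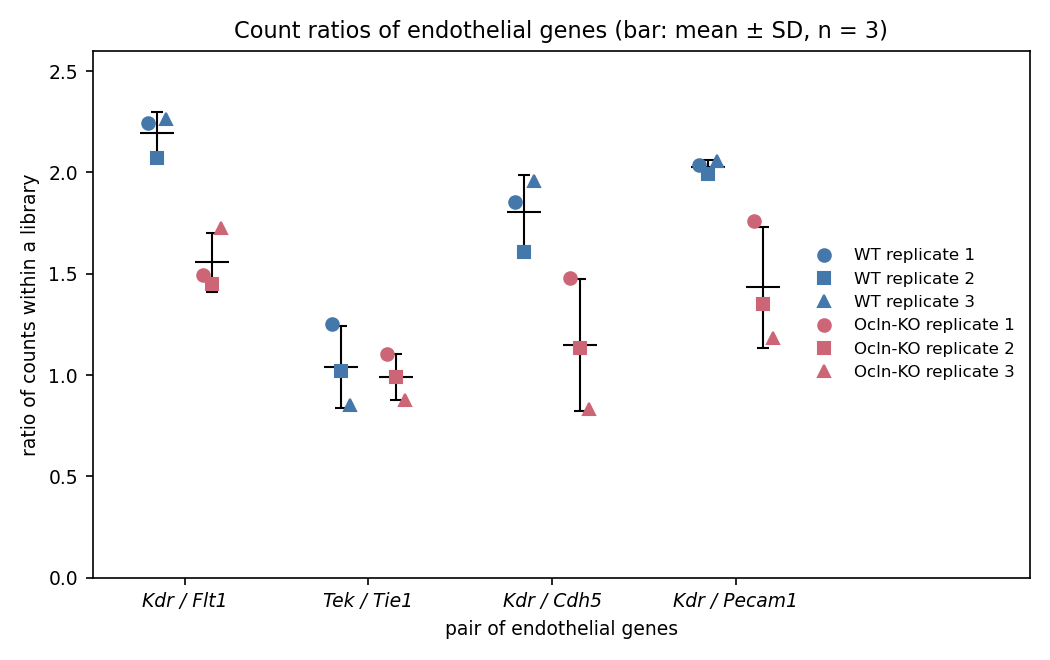
Ratio of the counts of 2 endothelial genes within each library (vertical axis) for 4 pairs (horizontal axis), with a bar at the mean and whiskers of 1 SD (n = 3). The 3 ratios with Kdr on top are lower in each Ocln-KO library than in each WT library, while the ratio of Tek to Tie1 overlaps at 1.04 in WT and 0.99 in Ocln-KO.

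RefSeq promoter entries matched 6 of the 10 members (Kdr, Flt1, Tek, Tie1, Eng and Emcn). The 250 bases before the transcript start that the promoter table uses are shown for the VEGF receptor pair, whose log2 fold changes had opposite signs, and for Emcn, the member whose Ocln-KO libraries all lay above WT. Capitals mark the letters GGAA on either strand (TTCC when read here), the core that ETS factors bind, a family that includes the endothelial regulators Erg and Fli1. The windows are chr5:75978456-75978705 (minus strand) for Kdr, chr5:147726012-147726261 (minus strand) for Flt1 and chr3:137340828-137341077 (plus strand) for Emcn, in GRCm38.p6. This start is not always the outer end of the gene, so that the Kdr and Flt1 windows lie within the gene positions given above, and the last 11 bases of the Emcn window and the last 3 of the Kdr window lie in GENCODE exons of the same gene.
Kdr: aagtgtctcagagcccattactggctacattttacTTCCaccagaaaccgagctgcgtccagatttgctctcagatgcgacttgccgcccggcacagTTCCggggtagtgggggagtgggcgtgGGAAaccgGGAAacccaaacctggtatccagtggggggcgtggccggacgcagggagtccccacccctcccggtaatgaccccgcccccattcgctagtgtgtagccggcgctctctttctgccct
Flt1: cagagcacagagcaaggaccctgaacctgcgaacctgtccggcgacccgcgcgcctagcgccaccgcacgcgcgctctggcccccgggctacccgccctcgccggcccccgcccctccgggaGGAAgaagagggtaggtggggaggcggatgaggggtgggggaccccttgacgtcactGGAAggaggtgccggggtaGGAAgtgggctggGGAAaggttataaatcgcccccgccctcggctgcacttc
Emcn: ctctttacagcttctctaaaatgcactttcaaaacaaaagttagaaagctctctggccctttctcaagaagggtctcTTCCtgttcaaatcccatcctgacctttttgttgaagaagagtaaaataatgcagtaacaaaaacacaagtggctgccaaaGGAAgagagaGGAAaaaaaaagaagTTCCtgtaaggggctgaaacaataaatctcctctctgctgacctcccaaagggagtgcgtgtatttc
Each of these 3 windows holds 4 matches, and those of Tek, Eng and Tie1, not shown, hold 2, 3 and 7. Of the Tie1 window, 212 bases lie in exons of Tie1. Among the first listed starts of 27025 genes, 93.4% of windows of this length held at least 1 match and 33.4% held at least 4. The longer form CCGGAA (either strand) was in the Kdr window alone among the 6, and in 12.2% of all windows. Matching letters are a description and show no binding.

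Tek encodes TIE2, the receptor for the angiopoietins, on chromosome 4 from 94739086 to 94874976. Its values were 9.3, 8.5 and 6.27 CPM for WT and 8.7, 7.97 and 10.2 CPM for Ocln-KO, and the genotypes overlapped. The difference on the log2 scale was 0.16 ± 0.20 (SE, adjusted p = 0.645, edgeR). Without WT replicate 3, the lowest library, it was 0.01, and without Ocln-KO replicate 3 it was 0.05.

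Tie1, the orphan partner of TIE2, lies on the same chromosome from 118471191 to 118489849. The WT libraries had 7.43, 8.35 and 7.38 CPM and those of Ocln-KO 7.89, 8.07 and 11.5 CPM. Ocln-KO replicate 3 stood above the other libraries, which lay within 1 CPM of each other. The log2 fold change of 0.25 (SE 0.19, adjusted p = 0.442) became 0.05 without it. The ratio of Tek to Tie1 counts was 1.04 ± 0.202 in WT and 0.99 ± 0.112 in Ocln-KO (SD, n = 3 each).

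Cdh5, the VE-cadherin of endothelial adherens junctions, lies on chromosome 8 from 104101613 to 104144504. Levels were 19, 18.8 and 15.4 CPM over the WT libraries, and 18.2, 23.7 and 29.3 CPM over those of Ocln-KO. Ocln-KO replicates 2 and 3 lay above each WT library and Ocln-KO replicate 1 among them. Its log2 fold change of 0.42 was the largest of the members (SE 0.18, adjusted p = 0.176, edgeR). It ranged from 0.24 without Ocln-KO replicate 3 to 0.59 without Ocln-KO replicate 1, where the adjusted p of 0.0582 was the lowest of any member under the alternatives.

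Pecam1, on chromosome 11 from 106654213 to 106715281, encodes an adhesion molecule of endothelial contacts that leukocytes and platelets also carry. WT libraries had 17.3, 15.1 and 14.6 CPM and Ocln-KO libraries 15.3, 19.9 and 20.6 CPM. The pattern over the libraries was that of Cdh5, with Ocln-KO replicate 1 within the WT range. The log2 fold change was 0.24 ± 0.15 (SE, adjusted p = 0.325). Leaving out Ocln-KO replicate 3 gave 0.16, and leaving out Ocln-KO replicate 1 gave 0.37.

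Emcn, which encodes endomucin, a mucin-like protein of capillary and venous endothelium, lies on chromosome 3 from 137341062 to 137431069. Its values were 8.93, 6.86 and 8.75 CPM for WT and 9.6, 12 and 10.9 CPM for Ocln-KO. Each Ocln-KO library lay above each WT library. On the log2 scale Ocln-KO minus WT was 0.40 ± 0.17 (SE, adjusted p = 0.163, edgeR), and it was 0.40 as well without Ocln-KO replicate 3. Emcn and Kdr were the members without overlap between the genotypes, 1 higher and 1 lower of 10, where 16.9% of all genes were higher without overlap and 19.4% lower.

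Eng encodes endoglin, a co-receptor for BMP9 and TGF-beta, on chromosome 2 from 32646595 to 32682669. The WT libraries had 13.8, 15.7 and 11.3 CPM and those of Ocln-KO 12.3, 15.5 and 20.1 CPM. Ocln-KO replicate 3 alone lay above the WT range. The log2 fold change of 0.23 (SE 0.21, adjusted p = 0.509) was 0.03 without that library.

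Plvap forms the diaphragms of fenestrated capillaries and lies on chromosome 8 from 71497753 to 71511806. Levels were 8.31, 7.27 and 7.14 CPM over the WT libraries, and 6.67, 9.38 and 9.23 CPM over those of Ocln-KO. The Ocln-KO libraries lay on both sides of the WT libraries. The difference on the log2 scale was 0.15 ± 0.19 (SE, adjusted p = 0.628), and leaving out Ocln-KO replicate 2 or 3 gave 0.07 or 0.08.

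Vwf, whose product is stored in endothelial granules and in platelets, lies on chromosome 6 from 125552948 to 125686679. WT libraries had 25.8, 23.6 and 26.2 CPM and Ocln-KO libraries 22.5, 29.3 and 35 CPM. WT was tight, with an SD of 1.41 CPM, and Ocln-KO wide, with an SD of 6.28 CPM. The log2 fold change was 0.20 ± 0.16 (SE, adjusted p = 0.452) and 0.04 without Ocln-KO replicate 3.

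**Figure D3:**
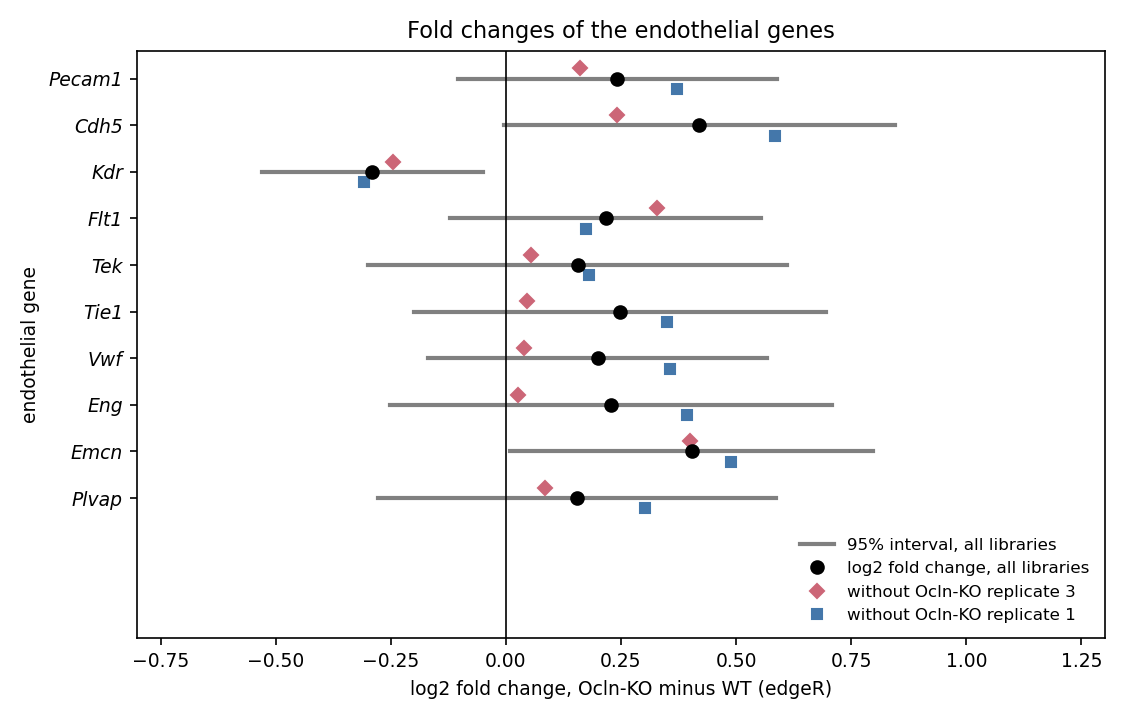
Log2 fold change of each endothelial gene, Ocln-KO minus WT (horizontal axis, edgeR), with its 95% interval over all 6 libraries (grey line) and the values without Ocln-KO replicate 3 (diamonds) or 1 (squares). The intervals of Kdr and Emcn leave out 0 before adjustment, and Eng, Vwf, Tie1 and Tek lie between 0.03 and 0.05 without Ocln-KO replicate 3.

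The intervals, not adjusted for the number of genes, were wide. For the 9 genes with a positive log2 fold change the upper 95% bound lay between 0.55 for Flt1 and 0.85 for Cdh5, under a 2-fold change. The lower bound lay between -0.30 for Tek and 0.01 for Emcn.

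The members also varied by library. Their sum was 161, 149 and 141 CPM over the WT libraries, and 146, 171 and 185 CPM over those of Ocln-KO, so that Ocln-KO replicate 1 lay within the WT range. Ocln-KO replicate 3 was the highest library for 6 of the 10 genes and WT replicate 3 the lowest for 6. Ocln-KO replicate 1 exceeded all WT libraries for 2 genes, Ocln-KO replicate 2 for 6 and Ocln-KO replicate 3 for 8. The mean log2 CPM over the members, set against its WT mean, was 0.10, 0.00 and -0.11 in WT and 0.00, 0.22 and 0.34 in Ocln-KO. Relative to that library mean, Kdr was 1.26 ± 0.07 above it in WT and 0.79 ± 0.24 above it in Ocln-KO on the log2 scale (SD, n = 3 each) without overlap, and the other 9 members overlapped.

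**Figure D4:**
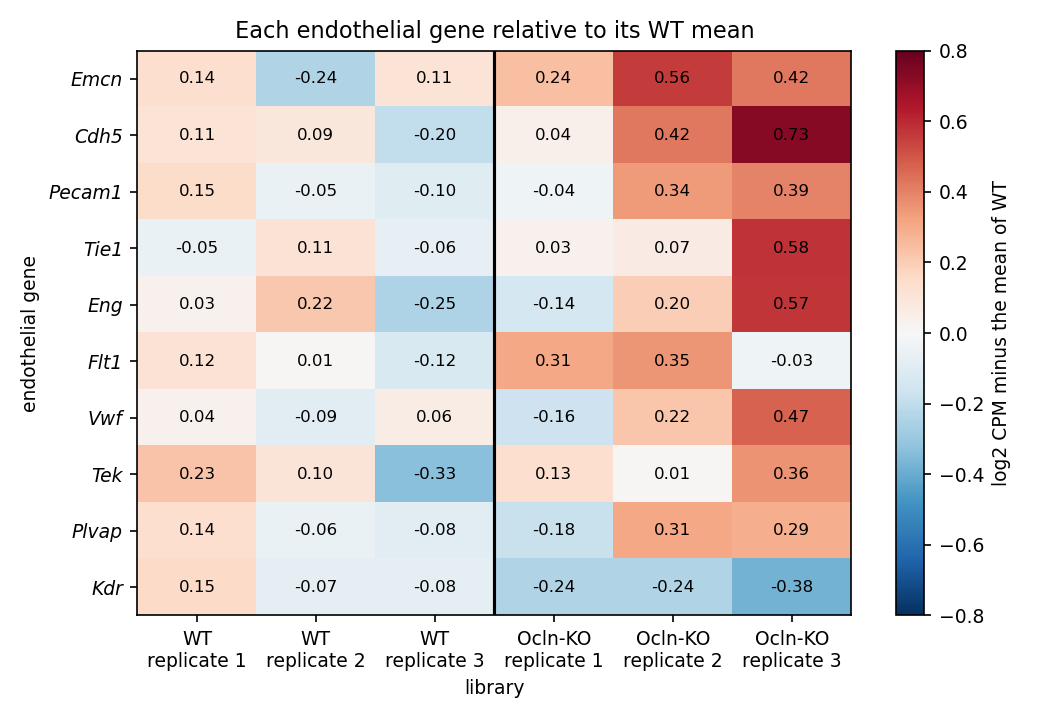
Log2 CPM (prior count of 2) of each endothelial gene minus its WT mean (colour and printed value), with genes in rows and the 6 libraries in columns. Ocln-KO replicate 3 is the highest library for 6 genes, up to 0.73 for Cdh5, and is negative for Kdr at -0.38 and Flt1 at -0.03, while Emcn and Plvap are highest in Ocln-KO replicate 2.

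Among genes that are not members, 4 of those whose log2 CPM followed the members' mean most closely over the 6 libraries, out of 16348 with a mean of at least 1 CPM, were Zfp729a, Vmn2r-ps87, Gm36629 and Snora30. Their Pearson correlations of 0.986 to 0.988 describe 6 libraries only. They are a zinc finger gene, a pseudogene, a gene model and a small nucleolar RNA.

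Among the ligands and co-receptors of these receptors, Nrp1 rose and Angpt2 fell, while the VEGF genes did not pass the test. Of the 11 genes on this list, all tested, 6 had positive and 5 negative log2 fold changes, with a median of 0.13. Angpt2, the angiopoietin that antagonises TIE2 in most settings and is made by endothelial cells, had 14, 6.27 and 13 CPM over the WT libraries, and 3.3, 2.51 and 1.39 CPM over those of Ocln-KO. Each Ocln-KO library lay under each WT library, with a log2 fold change of -2.21 (SE 0.40, adjusted p = 0.0238, edgeR). Angpt1, the TIE2 agonist, had 3.17 ± 0.85 CPM in WT, with 3.08 ± 0.721 CPM in Ocln-KO (SD, n = 3 each, adjusted p = 0.938). The ratio of Angpt2 to Angpt1 counts, chosen after its values were seen, was 3.52, 1.93 and 5.68 over the WT libraries, and 0.972, 0.702 and 0.618 over those of Ocln-KO.

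Nrp1, a co-receptor for VEGF that many other cells also make, rose from 67.6 ± 3.36 to 105.6 ± 14.2 CPM (SD, n = 3 each), or on the log2 scale by 0.64 (adjusted p = 0.0229). Vegfa, the main ligand of KDR, had 21.7, 16.2 and 18.4 CPM over the WT libraries, and 22.5, 26.7 and 25.8 CPM over those of Ocln-KO, higher in each Ocln-KO library, with a log2 fold change of 0.42 and an adjusted p of 0.095. Pgf, another ligand of FLT1, had 50.2 ± 1.03 and 33.8 ± 10.8 CPM (SD, n = 3 each), which is -0.57 on the log2 scale at an adjusted p of 0.126.

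Of the other pan-endothelial genes, 17 of 18 were tested, with 10 positive and 7 negative log2 fold changes and a median of 0.03. DESeq2 called 1 of them higher and 1 lower, and the main edgeR fit called 1 alone. This was Egfl7, which encodes a protein secreted by endothelial cells into their matrix, and it fell. Its values were 54.1, 49.3 and 45.2 CPM for WT and 20.4, 25.2 and 28.1 CPM for Ocln-KO, well apart, with a log2 fold change of -1.01 (SE 0.14, adjusted p = 0.0128, edgeR). This exceeded the change of any member. Of the exon bases of Egfl7, 401 (11.2%) are shared with other annotated genes, on both strands, and their part in its counts was not tested. Cd34, a sialomucin of capillary endothelium and stromal cells, was higher without overlap at 43.5 ± 4.23 and 60.2 ± 9.66 CPM (SD, n = 3 each) and did not pass (log2 fold change 0.47, adjusted p = 0.0688).

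Of 17 endothelial transcription factors 16 were tested, 12 with positive log2 fold changes (median 0.31). Ets1, an ETS factor also found in lymphocytes, rose from 14.5 ± 2.4 to 22.8 ± 0.197 CPM (SD, n = 3 each), or on the log2 scale by 0.66 (adjusted p = 0.0331, edgeR), and no other passed. Of the 11 arterial and venous genes, 10 were tested, 3 rose and 1 fell, with a median of 0.17. These are 30% and 10% of the list, beside 3.91% and 5.04% of all genes. Efnb2, the arterial ephrin, rose from 51.9 ± 3 to 105.1 ± 17.7 CPM, and Jag1, a Notch ligand, from 34.6 ± 2.02 to 56.4 ± 9.11 CPM (SD, n = 3 each). Nr2f2, the venous regulator, rose from 99.6 ± 8.2 to 138.5 ± 9.28 CPM, and Unc5b, which binds netrins on arterial cells, fell from 86.7 ± 15.6 to 46 ± 8.2 CPM (SD, n = 3 each). In this order the log2 values were 1.02, 0.70, 0.48 and -0.92, with adjusted p of 0.0110, 0.0242, 0.0307 and 0.0261. Over the 13 alternative fits the adjusted p was under 0.05 in 10, 9, 8 and 9, in the same order. Epithelial or stromal cells of many organs make these 4 genes too, and the share of endothelial cells in their counts was not tested.

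Of the 12 genes of endoglin and ALK1 signalling, 11 were tested and 0 passed by edgeR, with 3 at an unadjusted p under 0.05 and a median of 0.04. At that level 13.9% of all genes were higher and 15.2% lower by edgeR, which applies to the next list too. Acvrl1, the ALK1 receptor that works with endoglin, had 24 ± 1.37 CPM in WT, with 24.7 ± 2.94 CPM in Ocln-KO (SD, n = 3 each, adjusted p = 0.842). Of the 11, 2 (18.2%) were higher and 3 (27.3%) lower without overlap, beside 16.9% and 19.4% of all genes. Gdf2, with 1 to 40 counts per library, was among the lower ones, at -2.25 on the log2 scale (adjusted p = 0.0779). DESeq2 called 1 gene of this list lower, and scaling by total counts alone called 1 higher. Of the 6 leukocyte adhesion genes of activated endothelium, 4 were tested and 0 passed by edgeR, with 2 at an unadjusted p under 0.05. DESeq2 called 1 gene of this list higher, and edgeR without a count filter also called 1 higher. Vcam1 had 6.21 ± 2.09 and 12.3 ± 3.38 CPM and Icam1 11.6 ± 1.5 and 15.6 ± 0.11 CPM (SD, n = 3 each), both higher without overlap, with adjusted p of 0.0744 and 0.0916.

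Over the 6 vascular lists together, 69 of 75 genes were tested. By edgeR 5 of them (7.25%) were higher and 3 (4.35%) lower, beside the 3.91% and 5.04% of all genes given above. The median log2 fold change was 0.17, with 45 positive and 24 negative. Calls among the 69 dropped to 0 in both directions when WT replicate 1, or WT replicate 3, was left out. Leaving out WT replicate 2 gave 1 higher with 2 lower, and leaving out Ocln-KO replicate 2 at 3 higher with 2 lower. Over the whole table the calls fell to 23 genes without WT replicate 1. Of the 13 alternative fits, Nrp1 and Angpt2 were each under 0.05 in 9, Egfl7 in 10 and Ets1 in 8.

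**Figure D5:**
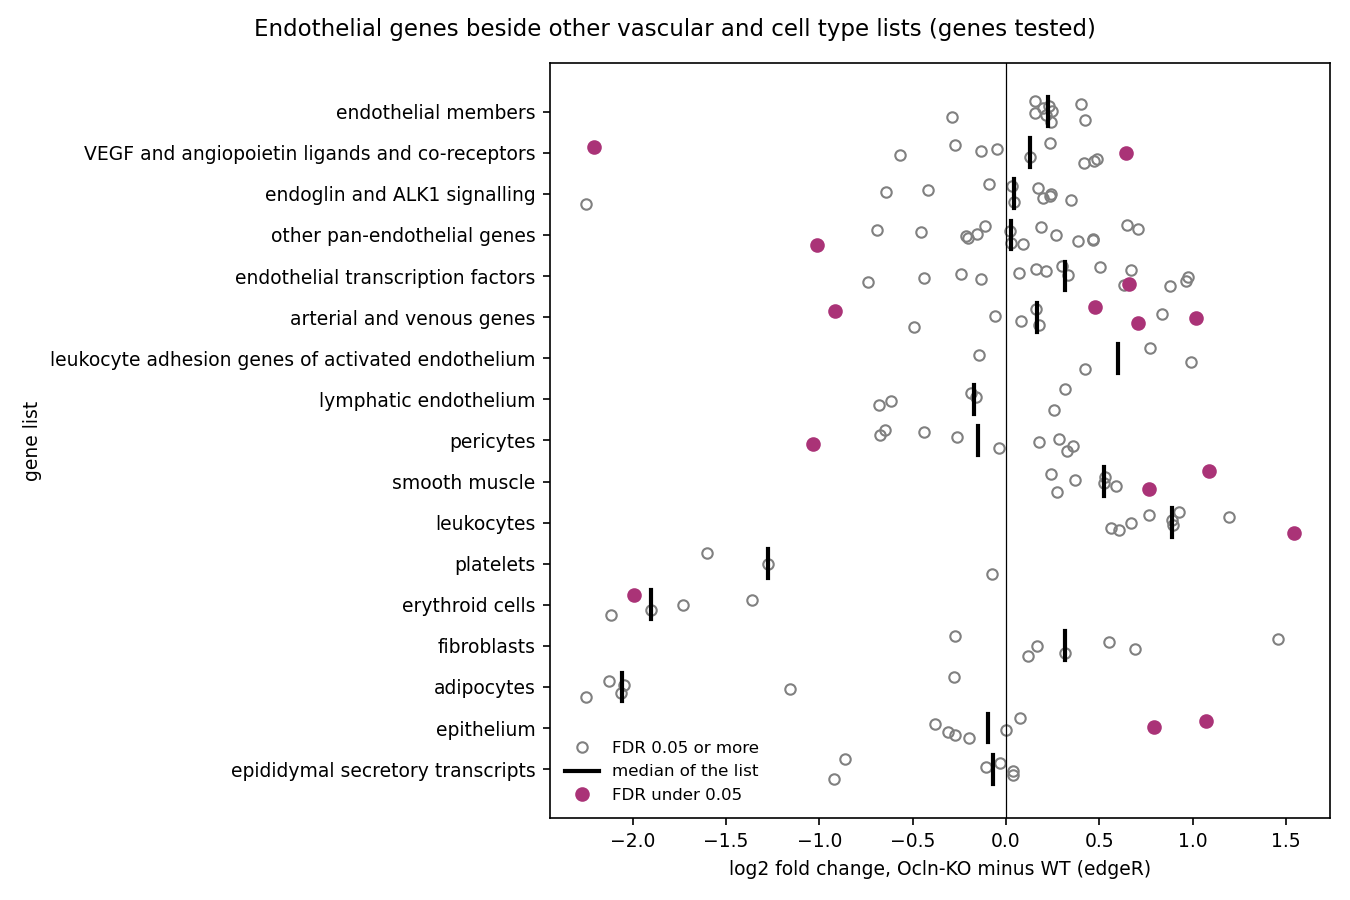
Log2 fold change, Ocln-KO minus WT (horizontal axis, edgeR), of the tested genes of each list (rows), with filled points for an adjusted p under 0.05 and a bar at the list's median. The 10 endothelial genes lie between -0.29 and 0.42 with no filled point, while the leukocyte and smooth muscle genes all lie above 0 and the erythroid genes all below it.

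Markers of other cell types differed between the genotypes and libraries, and their part in the values of the endothelial genes was not tested. All 9 leukocyte genes tested of 10 had positive log2 fold changes, with a median of 0.89, and Ptprc, the pan-leukocyte CD45 gene, rose by a log2 value of 1.54 (adjusted p = 0.0110, edgeR). The summed leukocyte genes ranged from 136 to 164 CPM in WT, and Ocln-KO reached 186, 221 and 381 CPM, with the libraries of each genotype in the same order as for the summed endothelial genes. Among 10 platelet genes, which bear on Vwf and Pecam1, 4 had no count in any library, including Pf4 and Ppbp, and 3 were tested with 0 called by edgeR and 0 at an unadjusted p under 0.05. All 3 had negative log2 fold changes, with a median of -1.28. Gp9 had 4.54 ± 1.56 CPM in WT against 1.5 ± 1.42 in Ocln-KO, and Gp5 0.917 ± 0.232 against 0.376 ± 0.219 (SD, n = 3 each), both lower without overlap, with adjusted p of 0.282 and 0.180. The platelet sum ranged from 24.9 to 37.5 CPM in WT and from 21.4 to 31.1 CPM in Ocln-KO, most of it from Itga2b.

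All 5 erythroid genes tested of 7 listed had negative log2 fold changes, with a median of -1.90. Alas2, the erythroid enzyme of haem synthesis, fell by 1.99 in log2 units (adjusted p = 0.0350, edgeR). Their sum ranged from 22.2 to 49.7 CPM in WT and from 6.07 to 13.2 CPM in Ocln-KO, without overlap. All 8 smooth muscle genes were positive, with a median of 0.53. Their sum ranged from 1235 to 1486 CPM in WT and from 1674 to 2258 CPM in Ocln-KO. Myh11 rose by 0.77 in log2 units (adjusted p = 0.0296, edgeR) and Actg2 by 1.09 (adjusted p = 0.0489, edgeR). The adjusted p was under 0.05 in 8 of 13 alternative fits for Myh11 and in 7 for Actg2.

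Pericytes, the mural cells of capillaries, showed no such common direction, with 4 of 10 genes positive and a median of -0.15. Kcnj8, a potassium channel gene of pericytes, fell from 15 ± 4.31 to 7.32 ± 1.37 CPM (SD, n = 3 each), or -1.03 on the log2 scale (adjusted p = 0.0420). Its adjusted p was under 0.05 in 5 of 13 alternative fits and ranged up to 0.133, and scaling by total counts alone gave 2 pericyte genes higher and 0 lower. Their sum ranged from 363 to 418 CPM in WT and from 369 to 384 CPM in Ocln-KO. Of 7 lymphatic endothelial genes, 6 were tested with 0 called by edgeR and 0 at an unadjusted p under 0.05, with a median of -0.17 and a sum of 79.1 to 111 CPM in WT and 77.6 to 87.9 CPM in Ocln-KO. Most of this sum came from Reln.

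The 7 fibroblast genes had a median of 0.32 and 0 called by edgeR, with 2 at an unadjusted p under 0.05. Their sum was 1969, 2724 and 5464 CPM in Ocln-KO, highest in Ocln-KO replicate 3, against 2506 to 2748 CPM in WT. Of 7 adipocyte genes 6 were tested, all negative with a median of -2.06 and 0 called, with 2 at an unadjusted p under 0.05. The adipocyte sum ranged from 33.3 to 43.5 CPM in WT and from 27.7 to 29.1 CPM in Ocln-KO. Most of it came from Plin4, whose log2 fold change was -0.28, so the sum and the median rest on different genes. Among 8 epithelial genes Krt19 and Cldn4 rose and the median was -0.10. The epithelial sum ranged from 1770 to 2003 CPM in WT and from 1495 to 1897 CPM in Ocln-KO. Of 8 epididymal secretory transcripts 6 were tested with 0 called by edgeR and 2 at an unadjusted p under 0.05, and a median of -0.07. Their sum ranged from 27410 to 32933 CPM in WT and from 19030 to 28061 CPM in Ocln-KO. Beside the counts in this paragraph at an unadjusted p under 0.05, 13.9% of all genes were higher and 15.2% lower (edgeR).

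The calls among these cell type genes depended on the libraries. With WT replicate 1 or WT replicate 3 left out, 0 leukocyte, smooth muscle, erythroid and pericyte genes were called, and the same held with the replicate number as a block. Ptprc then had adjusted p of 0.0610, 0.0643 and 0.0688, and Alas2 of 0.103, 0.127 and 0.108. Leaving out WT replicate 2 or Ocln-KO replicate 2 also gave 0 smooth muscle, erythroid and pericyte calls, while 1 leukocyte gene was called in either case. Leukocyte calls were 5 higher with DESeq2 and 7 higher without Ocln-KO replicate 1, and smooth muscle calls 5 higher in both. Erythroid calls were 4 lower with DESeq2 and 3 lower without a count filter. Among the secretory transcripts DESeq2 called 2 lower, and edgeR without a count filter 1 lower. Without a count filter 1 fibroblast gene was called higher, and without Ocln-KO replicate 3 there was 1 adipocyte gene called lower. Leaving out Ocln-KO replicate 1 gave 0 pericyte calls. Krt19 was under 0.05 in 8 of the 13 alternatives and Cldn4 in 11.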

How the data were processed

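Total RNA of whole epididymis was depleted of rRNA and sequenced as directional paired-end libraries. After trimming, the authors mapped reads with HISAT2 2.0.4 to GRCm38 and counted them per gene with HTSeq. The deposited values are each gene's count per library, not normalized. The counting mode and annotation release are not given in the sources used here. Columns were matched to samples by title, with 0 columns left over. Symbols turned into dates or numbers by a spreadsheet (28 genes, 0.145% of counts) were kept as listed.

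Counts were analysed in R 4.3.3. Genes passing edgeR's filterByExpr (19691 of 32046 with a count, all 10 endothelial genes among them) were scaled by TMM factors and compared with glmQLFit and glmQLFTest in edgeR 4.0.16, unpaired, and p-values were adjusted (Benjamini-Hochberg) over the 19691. Standard errors are the log2 fold change over the square root of F, and 95% intervals use the test's degrees of freedom. DESeq2 1.42.0, the tool of the study's methods, limma 3.58.1 (voom), other scalings and filters, a replicate block and leaving out each library were alternatives. The fits were tested on simulated counts. There edgeR called 9.23% of the genes changed 1.5-fold, 36.9% of those changed 2-fold and 74.2% of those changed 4-fold. It also called 6 unchanged genes, where DESeq2 called 56. Of its 19273 genes, 65 were changed 1.5-fold, 65 were changed 2-fold and 62 were changed 4-fold, while 1762 genes were called in the data. The adjusted p depends on the share of genes changed, and the rates were not taken at the members' counts. They therefore do not give the rate at which changes in the 10 members would be called. Intervals cover the spread between libraries, and counting error is included in it.

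The genes named are the 10 members, up to 4 genes of the largest change among those called in each of 6 vascular and 10 cell type lists, and the 5 genes closest to the members' mean, of which 1 is not reported here. Other list genes named without a call, and the count ratios, were picked once their values were known. The members and lists were chosen with earlier results of these data known. Exon lengths come from GENCODE M21 and gene positions and promoters from RefSeq, both of GRCm38. All 157 list genes were in the table by symbol.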

Additional observations from a re-analysis of the deposited data

How the results depend on the processing

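Over 13 alternative fits the 10 endothelial genes kept the sign of their log2 fold change and stayed uncalled in all 130 values. The median over the members lay between 0.07 and 0.35, both with an Ocln-KO library left out. Ocln stayed called, with a log2 fold change between -2.56 and -2.41. The numbers of other vascular genes called, 5 higher and 3 lower, became 8 higher with DESeq2, and lay between 0 and 6 higher and between 0 and 4 lower with libraries left out. With the replicate number as a block they became 0 higher and 0 lower, and calls over the whole table fell from 1762 to 41. Scaling by total counts alone turned the whole-table split from 770 higher and 992 lower into 1175 higher and 674 lower, with the median over the members at 0.31. The paper's methods speak of 3 pairs of WT and Ocln-KO mice, and whether the replicate numbers mark such pairs is not stated. The main fit did not treat them as pairs. Deviations of same-numbered libraries correlated at -0.05, -0.03 and -0.003, and none of the 3 numbers had its highest correlation within its own number. With so few libraries these correlations cannot exclude pairing, and the block fit gives the calls under it. The number of libraries limits what is resolved.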

Other observations

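Some genes that mark endothelium elsewhere were almost without counts. Cldn5, the main claudin of endothelial tight junctions, had 2 counts over the 6 libraries, and Notch4, an endothelial Notch receptor, had 5, while Cdh5 had at least 571 in each library. Of the 157 list genes, 16 had at most 18 counts over the 6 libraries, 5 of them on the vascular lists, and the exons of 15 of these 16 share no base with another GENCODE gene. The cause was not tested.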
